A study of Oryza sativa with 4 samples.

Results

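A set of 128 genes stood at least 4-fold higher in rice paleas labelled rep1 than in the paleas of any of the other 3 genotypes sequenced beside them. The palea is the inner of the paired bracts that enclose the rice flower. Levels are in FPKM, that is fragments corrected for both transcript length and sequencing depth, so that genes of different length can be compared. Of the 55986 genes in the deposited table, 20675 averaged 1 FPKM or more across the 4 genotype means. A gene became a member when log2 of its rep1 FPKM + 1 over the highest other FPKM + 1 was at least 2. Members made up 0.619% of the genes tested. Members were thus chosen by the ratio of rep1 to the highest other genotype, so every ratio of rep1 to another genotype given here is a description and supports nothing further.

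The study compared paleas of 3 mutant lines with wild type in bulk RNA sequencing of poly(A)-enriched RNA. The rep1 line carries a deletion and has a japonica background. The REP1 gene codes for a TCP-family transcription factor known from palea development. The Osmads6 line carries an inserted Tos17 retrotransposon and is labelled Nipponbare. The Osmads32 line carries a T-DNA and is labelled AF36. Both of these lines are named for genes of MADS-box transcription factors of floral patterning. The wild type is labelled japonica without a cultivar. All plants came from a paddy field in Shanghai, and neither floral stage nor plant age was given in the sources used here. Background and genotype changed together, so what each contributes cannot be told apart.

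Each genotype had 1 sample, whose 2 table columns were treated as runs of that sample, and the labels do not say whether separate plants were used for the runs. Treated in this way, the data allow no test between genotypes, and no p-value is given. If the columns came from separate plants a test would be possible, and none was run. Recovered depth ran from 34011366 to 49726356 reads per run, a lower bound because reads could not be recovered for every gene. The levels of the targeted genes did not bear out the labels, and that of OsMADS6 went against them. OsMADS6 averaged 842 FPKM in rep1, 127 FPKM in Osmads6, 262 FPKM in Osmads32 and 13.5 FPKM in wild type, so it was lowest in wild type and not in its own mutant. OsMADS32 averaged 2.78 FPKM in rep1, 14.9 FPKM in Osmads6, 8.32 FPKM in Osmads32 and 7.19 FPKM in wild type, so it was not lower in its own mutant than in wild type. REP1 gave 2 and 0 reads in the rep1 runs and 4 and 11 reads in the wild type runs, too few to check the label. Each genotype name below therefore means the library labelled with it. Exchanging the labels of Osmads6 and wild type leaves the membership at 128, since the rule uses only the highest of the other 3.

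Several members belong to pathways whose working is well known. Phenylpropanoid metabolism turns phenylalanine into activated cinnamic acids, which feed lignin, the polymer that stiffens secondary cell walls, and flavonoids. Lemma and palea together form the hull, whose mature cell walls are rich in lignin and silica. Chitinases cut the chitin of fungal cell walls and are known as defence proteins, and glutathione S-transferases attach glutathione to reactive compounds. Of the 128 members, 14 could be paired with a gene symbol and 114 could not; only those 14 are described by function.

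The lignin and flavonoid members were high in both rep1 runs. 4CL3 (LOC_Os02g08100), a 4-coumarate:CoA ligase that activates cinnamic acids for lignin synthesis, reached 1060 and 952 FPKM in the rep1 runs. It had 76.6 and 72.8 FPKM in Osmads6, 227 and 241 FPKM in Osmads32 and 276 and 150 FPKM in wild type. Its 8 runs fell into a high pair in rep1, an intermediate set in Osmads32 and wild type, and a low pair in Osmads6. The mean in rep1 was 13.5-fold that in Osmads6, 4.31-fold that in Osmads32 and 4.72-fold that in wild type. Without wild type run 2 its log2 ratio over the highest other genotype was 1.86, below the threshold, against 2.10 with all runs.

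LAC4 (LOC_Os01g62480) encodes a laccase, a class of copper oxidases known in Arabidopsis to polymerise lignin precursors. It stood at 30.5 and 26.0 FPKM in rep1, 0.915 and 1.36 FPKM in Osmads6, 4.94 and 4.23 FPKM in Osmads32 and 4.24 and 2.80 FPKM in wild type. Its mean in rep1 was 6.17-fold the highest other mean, that of Osmads32. CHS1 (LOC_Os11g32650), the chalcone synthase that opens the flavonoid branch, had 142 FPKM in each rep1 run. It had 1.46 and 1.58 FPKM in Osmads6, 16.0 and 13.2 FPKM in Osmads32 and 17.3 and 13.6 FPKM in wild type. For CHS1 the Osmads32 and wild type runs overlapped, with rep1 above them and Osmads6 below. Its rep1 mean was 93.3-fold that in Osmads6, 9.70-fold that in Osmads32 and 9.17-fold that in wild type.

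The chitinase gene CHT7 (LOC_Os05g33150) had the highest rep1 level of all members, at 1683 and 1278 FPKM. In Osmads6 it had 1.02 and 1.98 FPKM, in Osmads32 171 and 209 FPKM, and in wild type 46.9 and 25.7 FPKM. No runs of different genotypes overlapped, and the 4 means ran in the order rep1, Osmads32, wild type, Osmads6. The rep1 mean was 985-fold that in Osmads6, 7.79-fold that in Osmads32 and 40.8-fold that in wild type. Its neighbour in the table, CHT9 (LOC_Os05g33140), is also a chitinase gene and also a member. CHT9 stood at 103 and 90.5 FPKM in rep1, 10.03 and 10.09 FPKM in Osmads6, 12.6 and 13.0 FPKM in Osmads32 and 4.49 and 3.46 FPKM in wild type. Unlike CHT7, CHT9 was lowest in wild type. Related genes of this kind can share reads, and how such reads were counted is not given in the sources used here, so the split between the 2 genes is uncertain to that extent.

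Among members for carbohydrate enzymes, BGLU10 (LOC_Os04g39840), a beta-glucosidase gene, had 32.0 and 34.3 FPKM in rep1, 4.62 and 3.80 FPKM in Osmads6, 5.29 and 7.39 FPKM in Osmads32 and 4.78 and 7.09 FPKM in wild type. BGLU28 (LOC_Os08g39870), another beta-glucosidase gene, had 13.8 and 15.9 FPKM in rep1, 0.122 and 0.279 FPKM in Osmads6, 1.98 and 1.35 FPKM in Osmads32 and 0.399 and 0.117 FPKM in wild type. The other 3 genotypes lay close together for BGLU10, whereas for BGLU28 both Osmads32 runs lay above those of Osmads6 and wild type. AMY2A (LOC_Os06g49970), an alpha-amylase gene, whose products break down starch, had 16.8 and 19.1 FPKM in rep1, 1.04 and 1.21 FPKM in Osmads6, 4.50 and 2.65 FPKM in Osmads32 and 3.18 and 3.13 FPKM in wild type. AMY2A was the named member nearest the threshold, with a log2 ratio of 2.05, and it fell short without rep1 run 2 (1.96) or without Osmads32 run 2 (1.78).

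Of the genes named as glutathione S-transferases, GSTZ5 (LOC_Os03g17470) was abundant in every library. It had 488 and 504 FPKM in rep1, 41.8 and 43.4 FPKM in Osmads6, 113 and 111 FPKM in Osmads32 and 89.3 and 112 FPKM in wild type. GSTU1 (LOC_Os03g57200), of the tau class, was low outside rep1. It had 19.4 and 16.6 FPKM in rep1, 0.656 and 0.230 FPKM in Osmads6, 0.300 and 0.437 FPKM in Osmads32 and 1.35 and 0.773 FPKM in wild type. The rep1 mean was 4.44-fold the highest other mean for GSTZ5 and 16.9-fold for GSTU1, the largest ratio among the named members.

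The remaining named members act in hormone metabolism, transport, oxygen binding and gene regulation. CYP714B2 (LOC_Os03g21400) encodes a gibberellin 13-oxidase of rice, which turns gibberellins towards less active forms. It stood at 71.1 and 68.6 FPKM in rep1, 1.23 and 0.950 FPKM in Osmads6, 8.90 and 8.78 FPKM in Osmads32 and 15.9 and 11.2 FPKM in wild type. VIT2 (LOC_Os09g23300), a vacuolar iron transporter gene, had 14.4 and 13.1 FPKM in rep1, 0.273 and 0.456 FPKM in Osmads6, 1.31 and 1.48 FPKM in Osmads32 and 1.97 and 2.19 FPKM in wild type. Both genes kept the same order of genotypes, with rep1 highest, then wild type, then Osmads32 and then Osmads6.

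HB2 (LOC_Os03g12510), a gene of a non-symbiotic haemoglobin, had 15.3 and 12.0 FPKM in rep1 and 1.24 and 0.640 FPKM in wild type. It gave 1 read in each Osmads6 run and no read in either Osmads32 run. At a floor of 3 reads per run, rep1 was at least 76.3-fold higher than Osmads32. DOS (LOC_Os01g09620), a CCCH zinc finger gene known for delaying leaf senescence in rice, had 259 and 272 FPKM in rep1, 30.2 and 27.0 FPKM in Osmads6, 51.0 and 48.2 FPKM in Osmads32 and 63.6 and 56.9 FPKM in wild type. The rep1 mean was 9.27-fold that in Osmads6, 5.34-fold that in Osmads32 and 4.40-fold that in wild type.

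**Figure D1:**
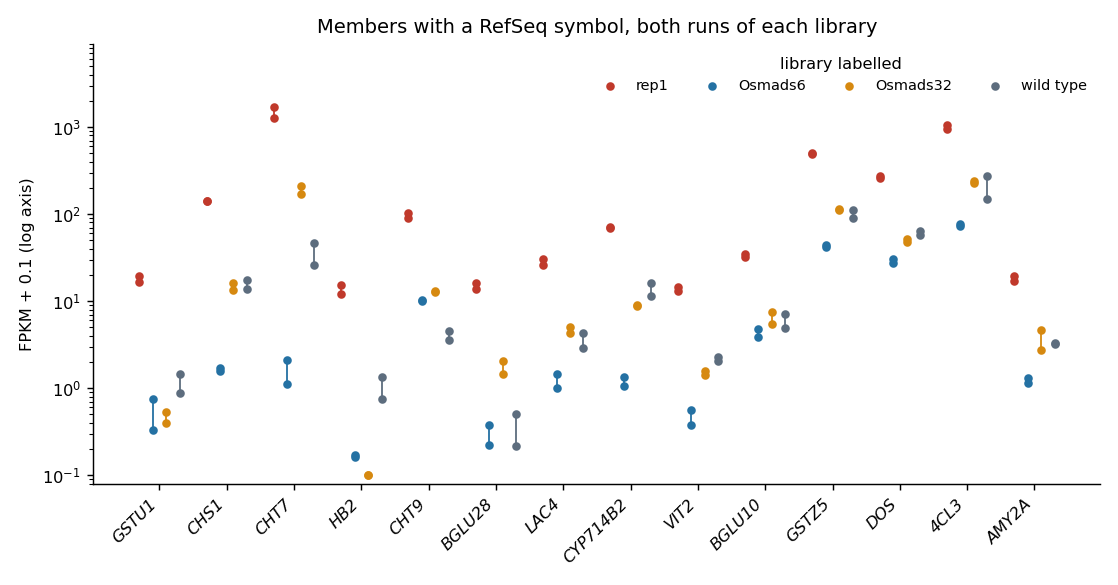
FPKM + 0.1 on a log axis for the 14 members with a symbol, ordered by their ratio; each point is a run, a line joins the 2 runs of a library, and colours give the library's label. In all 14 genes both rep1 runs lie above the 6 other runs, which the rule favours, and Osmads6 is the lowest of the other 3 genotypes by mean in 11 genes.

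Among the 14 named members, the highest of the other 3 genotypes was Osmads32 in 8 genes and wild type in 6, and never Osmads6. Osmads6 was the lowest of the 3 in 11 genes. Osmads32 was lowest for GSTU1 and HB2, and wild type for CHT9.

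The largest ratios in the set belonged to genes without a symbol. LOC_Os03g08460 had 109 and 116 FPKM in rep1, 0.0782 and 0.321 FPKM in Osmads6, 1.38 and 1.29 FPKM in Osmads32 and 4.30 and 3.98 FPKM in wild type. Its log2 ratio over wild type, the highest of the other 3, was 4.46. LOC_Os03g59210 had 697 and 861 FPKM in rep1, 9.74 and 17.0 FPKM in Osmads6, 33.9 and 36.0 FPKM in Osmads32 and 15.2 and 34.1 FPKM in wild type, with a log2 ratio of 4.44. For both genes rep1 was far from all other runs, but the wild type runs of LOC_Os03g59210 differed from each other and reached the Osmads32 level.

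Over all 128 members, the log2 ratio of rep1 over the highest other genotype ranged from 2.00 to 4.46 with a median of 2.36, beside a median of -0.39 over all genes tested. A ratio of at least 8-fold was found for 23 members (0.111% of genes tested) and of at least 16-fold for 3. Without the pseudocount the median fold was 6.42. In each of the 128 members the lower rep1 run was above the highest of the 6 other runs, which held for 14.4% of all genes tested. The rule used the means of these same runs and so favours this gap, which supports nothing further. The smallest gap was 3.14-fold and the median gap 5.41-fold. The rep1 runs of a member differed by at most 1.51-fold, and the fewest reads behind any member in a rep1 run were 68. Around the threshold, the last members inside were LOC_Os11g38220, at 6.79 FPKM in rep1 against 0.939 FPKM in wild type, and LOC_Os12g28177, at 7.97 against 1.24 FPKM. Just outside were LOC_Os04g32820, at 7.50 FPKM in rep1 against 1.12 FPKM in wild type, and LOC_Os08g05520, at 49.0 FPKM in rep1 against 11.5 FPKM in Osmads32. The count was 201 with a pseudocount of 0.1 and 54 with a pseudocount of 5. Leaving out the runs of another genotype can only raise it, and it was 147 without Osmads6, 186 without Osmads32 and 215 without wild type.

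**Figure D2:**
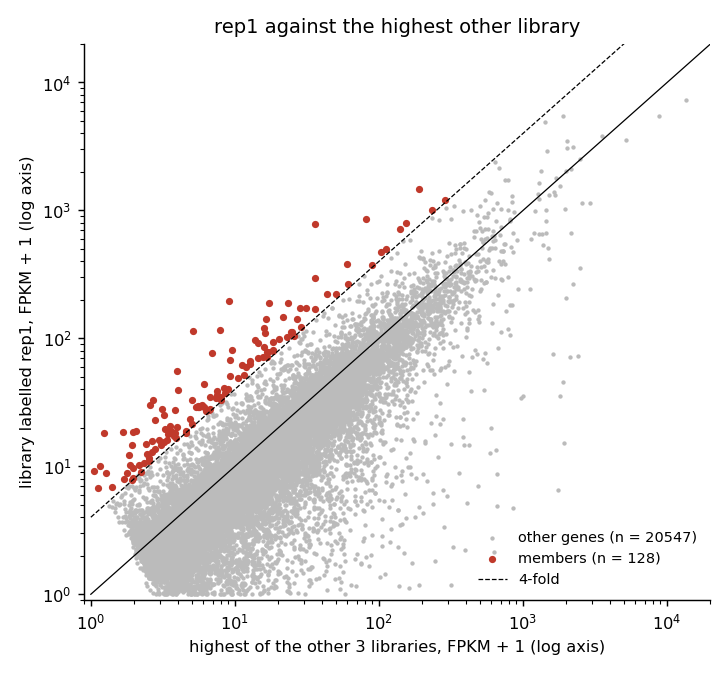
Mean FPKM + 1 in the library labelled rep1 (vertical, log axis) against the highest of the other 3 libraries (horizontal, log axis) for the 20675 genes tested. The solid line marks equality and the dashed line 4-fold; the 128 members in red are those on or above the dashed line.

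Members covered a wide span of levels in rep1, from 5.80 to 1480 FPKM with a median of 34.0 FPKM. The medians were 2.04 FPKM in Osmads6, 4.77 FPKM in Osmads32 and 4.08 FPKM in wild type. At least 100 FPKM was reached by 33 members in rep1, 1 in Osmads6, 6 in Osmads32 and 5 in wild type. Together the members took 2.66% and 2.56% of all FPKM in the rep1 runs, 0.157% and 0.166% in Osmads6, 0.391% and 0.402% in Osmads32, and 0.343% and 0.284% in wild type. They were not a set of genes silent elsewhere: 16 members stayed under 1 FPKM in all 3 other genotypes, and 16 others had at least 10 FPKM in all 3. Values of 0 in both runs occurred in 6 members for Osmads6, in 1 member for Osmads32 and in none for wild type. With a floor of 3 reads per run, rep1 was at least 27.7-fold to 221-fold higher in these 7 cases. In bulk tissue, fewer cells of a type and less RNA per cell cannot be told apart.

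**Figure D3:**
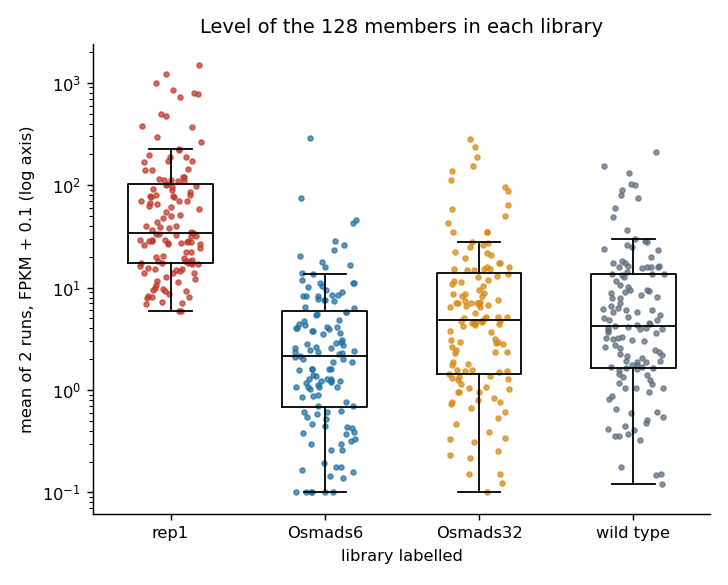
Mean FPKM + 0.1 of the 2 runs (log axis) of the 128 members in each library; each point is a gene, boxes span the lower to the upper quartile with the median as a line, and whiskers reach the farthest gene within 1.5 box lengths. The medians are 34.0 FPKM in rep1, 2.04 FPKM in Osmads6, 4.77 FPKM in Osmads32 and 4.08 FPKM in wild type.

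The rule put a ceiling on the other 3 genotypes without naming their order. It removes genes in which any of the 3 is high, which also shapes that order. The shares over all genes were not limited in this way, so differences from them are a description only. Osmads6 was the lowest of the 3 for 94 members (73.4%), beside 38.3% of all genes tested, and the highest for 13 (10.2%, beside 40.1% of all genes). Osmads32 was the highest for 69 members (53.9%, beside 26.6%) and wild type for 46 (35.9%), near its share of 33.3% over all genes. In the 484 genes that were 2-fold to 4-fold higher in rep1 than in any other genotype, Osmads6 was lowest in 320 (66.1%). Osmads6 over wild type had a median log2 ratio of -0.71 over the members and -0.01 over all genes tested. On this ratio 45 members (35.2%) were at least 2-fold lower in Osmads6, where 7.47% of all genes tested were, and 3 were at least 2-fold higher, where 7.7% of all were. Osmads6 over Osmads32 had a median of -0.83, with 51 members at least 2-fold lower (background 5.98%) and 1 at least 2-fold higher (background 7.61%). Both ratios use the Osmads6 runs. Osmads32 over wild type had a median of 0.14, with 15 members at least 2-fold higher (background 1.81%) and 10 at least 2-fold lower (background 3.34%). With the labels of Osmads6 and wild type exchanged, the genotype that is mostly lowest is wild type.

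The median log2 ratio of rep1 was 3.61 over Osmads6, 2.57 over Osmads32 and 2.71 over wild type, and these comparisons share the rep1 runs. Over all genes tested these medians were -0.14, -0.10 and -0.15. At least 4-fold higher in rep1 were 678 genes over Osmads6 (3.28%), 313 over Osmads32 (1.51%) and 220 over wild type (1.06%), and by the rule the members lie in all 3 lists. They make up 18.9% of the first list, 40.9% of the second and 58.2% of the list over wild type. Of the 92 genes that were 4-fold higher in rep1 than in wild type but are not members, 58 missed the threshold over Osmads32 only, 19 over Osmads6 only and 15 over both.

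The members lay on all 12 chromosomes by their locus IDs. Chromosome 3 held 24 of them (18.8%), beside 13.2% of all genes tested, and chromosome 11 held 12 (9.38%, beside 5.24%). Chromosome 1 also held 12 (9.38%), beside 14.3% of all genes tested. In locus order, 26 members (20.3%) had another member within 10 table rows, where 5.18% of the other genes tested had a member that near. They formed 11 groups, of which 9 were pairs, including the chitinase genes CHT7 and CHT9. CYP714B2 also had a member, without a symbol, in the next row.

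The largest group held 5 members within 21 consecutive genes of chromosome 7. Its highest member was LOC_Os07g44250, at 196 and 195 FPKM in rep1, 0.627 and 0.914 FPKM in Osmads6, 6.66 and 9.59 FPKM in Osmads32 and 2.56 and 1.08 FPKM in wild type. Its log2 ratio over Osmads32 was 4.43, and those of the other members of the group ran from 2.27 to 2.80. The members were interspersed with genes that did not pass the threshold. Of the 16 genes between them, 6 were under the filter of 1 FPKM, and the 10 tested had ratios of -2.46 to 0.95. The gene at 0.95, LOC_Os07g44330, also had rep1 highest and Osmads6 lowest, at 33.1 and 6.80 FPKM. The group of 3 on chromosome 3 contains LOC_Os03g08460 and the next gene, LOC_Os03g08470. LOC_Os03g08470 had 149 and 132 FPKM in rep1, 15.7 and 17.5 FPKM in Osmads6, 23.4 and 28.9 FPKM in Osmads32 and 30.5 and 21.7 FPKM in wild type. Whether genes in adjacent rows share reads or sequence was not tested.

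**Figure D4:**
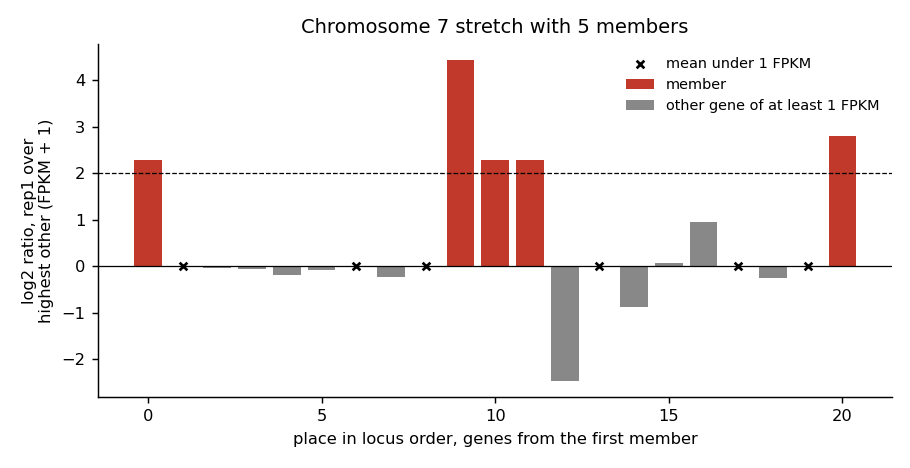
Log2 ratio of rep1 over the highest other genotype (FPKM + 1) for the 21 consecutive genes of the chromosome 7 stretch, by place in locus order from the first member. Red bars are the 5 members, grey bars the 10 other genes tested, crosses the 6 genes under 1 FPKM, and the dashed line is the threshold of 2; tested genes between the members lie at or under 0.95.

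Gene lists for 16 themes of floral identity, cell wall, hormone, defence and transport were compared with the set. They were written with earlier results of these data known, so their counts are no independent evidence. Only 1 list gene, 4CL3, was a member, and the other members are in none of the lists. The lignin list came nearest: of 15 genes tested, 7 (46.7%) were at least 2-fold above the highest other genotype, beside 2.96% of all genes tested. The median log2 ratio of the list was 0.99, beside -0.39 over all genes. Against single genotypes, 10 lignin genes were at least 2-fold higher in rep1 than in Osmads6 and 1 lower (background 10.7% higher, 16.6% lower). Over Osmads32, 8 were higher and 1 lower (background 6.47% and 9.62%), and over wild type 10 were higher and 0 lower (background 5.13% and 8.78%). Among the 8 lignin genes whose symbol was checked, 4 were 2-fold above the highest other genotype.

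HCT1 (LOC_Os04g42250), a hydroxycinnamoyl transferase gene, was the lignin gene next to the threshold among those checked. It had 182 and 165 FPKM in rep1, 32.6 and 34.4 FPKM in Osmads6, 37.5 and 37.6 FPKM in Osmads32 and 53.7 and 38.9 FPKM in wild type, a log2 ratio of 1.88. CAD2 (LOC_Os02g09490), a cinnamyl alcohol dehydrogenase that makes lignin precursors, averaged 321 FPKM in rep1, 44.5 FPKM in Osmads6, 139 FPKM in Osmads32 and 111 FPKM in wild type. 4CL1 (LOC_Os08g14760), a relative of 4CL3, averaged 35.9 FPKM in rep1, 3.24 FPKM in Osmads6, 14.5 FPKM in Osmads32 and 8.93 FPKM in wild type. These 3 genes had the rep1 runs on top and Osmads6 lowest, as most members did. The ligase genes were not uniform: 4CL5 (LOC_Os08g34790) averaged 13.3 FPKM in rep1, 50.9 FPKM in Osmads6, 27.8 FPKM in Osmads32 and 15.5 FPKM in wild type, a ratio of -1.86 over the highest other genotype. COMT1 (LOC_Os08g06100), a caffeic acid O-methyltransferase gene, had a ratio of 0.99, and CAD7 (LOC_Os04g52280) of -0.63.

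Of 9 listed secondary wall genes tested, 2 (22.2%) were at least 2-fold above the highest other genotype, beside 2.96% of all genes tested. Among these 2 was LOC_Os08g05520, the gene just outside the threshold at a log2 ratio of 1.998, whose listed symbol did not pass the check. The cellulose synthase gene CESA9 (LOC_Os09g25490) averaged 479.9 FPKM in rep1, 38.1 FPKM in Osmads6, 195 FPKM in Osmads32 and 152 FPKM in wild type, a ratio of 1.29. CESA7 (LOC_Os10g32980), which forms the same enzyme complex, averaged 360.3 FPKM in rep1, 47.9 FPKM in Osmads6, 244 FPKM in Osmads32 and 179 FPKM in wild type, a ratio of 0.56. CESA genes are close relatives and can share reads. The floral MADS, KNOX, and abscisic acid and drought lists each had 1 gene at least 2-fold above the highest other genotype, of 22, 3 and 8 tested. Their shares of 4.55%, 33.3% and 12.5% thus rest on 1 gene each. The other 11 lists had none.

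**Figure D5:**
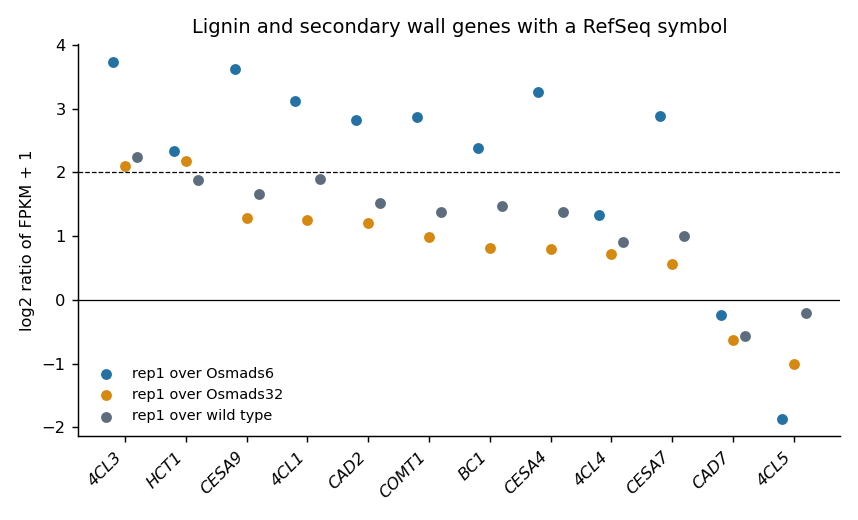
Log2 ratio of FPKM + 1 for rep1 over each of the other 3 libraries, for the lignin and secondary wall genes with a checked symbol, ordered by the ratio over the highest other library; the dashed line marks 4-fold. Among these genes 4CL3 is the only member, with all 3 points above the line, and 4CL5 and CAD7 lie below 0 in all 3 comparisons.

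A few listed genes were 4-fold higher in rep1 than in wild type and missed membership. OSH71 (LOC_Os05g03884), a KNOX homeobox gene, had 13.5 and 12.8 FPKM in rep1, 2.55 and 3.29 FPKM in Osmads6, 2.32 and 2.63 FPKM in Osmads32 and 2.84 and 1.75 FPKM in wild type. Its runs in the other 3 genotypes overlapped, and its log2 ratio of 1.85 missed on the scale with a pseudocount although the plain fold was 4.49. OsMADS6 had a ratio of 5.87 over wild type and of 1.68 over Osmads32. OsMADS13 (LOC_Os12g10540), a MADS-box gene of ovule identity, had 10.2 and 11.5 FPKM in rep1, 0.123 and 0 FPKM in Osmads6, 17.4 and 19.6 FPKM in Osmads32 and 0.423 and 0.691 FPKM in wild type. It was thus high in both rep1 and Osmads32 and highest in Osmads32.

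Markers of other floral organs differed between the libraries in the same comparisons. The summed level of 3 stamen, carpel and ovule genes (OsMADS3, OsMADS58, OsMADS13) was 26.3 and 27.7 FPKM in rep1 and 1.88 and 1.19 FPKM in Osmads6. This sum was 31.2 and 32.5 FPKM in Osmads32 and 5.00 and 6.45 FPKM in wild type. That of 4 anther and tapetum genes (RTS, OsC6, TDR, EAT1) was 271 and 260 FPKM in rep1, 5.83 and 6.10 FPKM in Osmads6, 154 and 182 FPKM in Osmads32 and 210 and 204 FPKM in wild type. Osmads6, the genotype lowest for most members, was also lowest for both sums, and RTS was at 0 in both of its runs. The anther sum is carried mainly by RTS, at means of 183 FPKM in rep1, 0 FPKM in Osmads6, 91.1 FPKM in Osmads32 and 116 FPKM in wild type, and by OsC6, at 79.5, 0.551, 73.5 and 87.1 FPKM in the same order. TDR went the other way, at 0.896 FPKM in rep1 and 4.50 FPKM in Osmads6. Over the full anther and tapetum list of 13 genes, the median log2 ratio of rep1 over Osmads6 was 0.01, so the list's median did not show the gap in the sum. On this ratio 5 of the 13 genes were at least 2-fold higher and 1 lower, beside 10.7% and 16.6% of all genes tested. The medians of this list were 0.11 over Osmads32 and -0.14 over wild type. None of these 7 genes is a member. The 6 markers of lemma, palea and floral organ identity (OsMADS1, OsMADS6, OsMADS14, OsMADS15, DL, YAB1) were detected in every library, with sums of 1148 and 1263 FPKM in rep1, 983 and 988 FPKM in Osmads6, 1148 and 1258 FPKM in Osmads32 and 917 and 1347 FPKM in wild type. OsMADS6 made up most of the rep1 sum, at 842 FPKM, and each of the other 5 markers had its lowest mean in rep1. OsMADS1 averaged 293 FPKM in rep1, 445 FPKM in Osmads6, 393 FPKM in Osmads32 and 635 FPKM in wild type. In rep1 OsMADS14 averaged 37.5 FPKM, OsMADS15 25.1 FPKM, YAB1 7.82 FPKM and DL 0.499 FPKM. The part of organ composition in the members' levels was not tested.

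The spread between runs is that between the 2 columns of a genotype, which were treated as runs of 1 sample. Whether it includes differences between plants is not known from the labels, and the rule itself favours ratios larger than it. The median difference between the runs of a library over the members was 0.16 on the log2 scale in rep1, 0.17 in Osmads6, 0.14 in Osmads32 and 0.31 in wild type. At least 2-fold between runs were 0 members in rep1, 1 in Osmads6, 0 in Osmads32 and 7 in wild type. Wild type was the least even library for members and for all genes, where 477 of 20675 differed 2-fold between its runs, against 168 in rep1.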

How the data were processed

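The authors deposited FPKM values for 55986 loci in 8 columns, 2 per genotype; RNA was mRNA-enriched, per the labels' protocols. The submitters' processing notes name the build IRGSP 1.0; which aligner, counter and annotation were used is not given in the sources used here. Columns of a genotype were averaged (n = 1, so no test was made) and a gene was called when past the stated fold. Ratios are log2((FPKM + 1)/(FPKM + 1)) over genes averaging 1 FPKM or more; adding 1 shrinks the ratios of low genes, and plain folds omit it. Whole reads were recovered from steps of the FPKM values within 0.02 reads for 44659 genes (99.9% of those above 0), up to a factor common to a gene's 8 runs; 54 genes, none a member, gave none and held 9.43% to 12.5% of a run. Floors cover counting error only. The selection was tested on simulated data (Python 3.11.15, numpy 2.4.6, pandas 2.3.3, matplotlib 3.10.9).

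The members and lists were chosen with earlier results of these data known. The table holds no symbols: pairs of locus and symbol from rice nomenclature were checked by chromosome and order (at least 90% in order) against the RefSeq gene table of ASM3414082v1. Of 162 list pairs 120 passed. All 14 member pairs passed, but were proposed after the RefSeq names near the members had been seen, and a wrong pairing between close neighbours would go unnoticed. Lists are counted over all their pairs; genes named singly passed, except the targeted OsMADS32 and REP1. Named were members with a symbol, the unnamed members with the 2 largest ratios, the highest member of each group of 3 or more neighbours, the genes around the threshold, and listed genes 4-fold above wild type that missed membership. Other listed genes were named after their values were seen. Promoter and protein features were not used here.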

Additional observations from a re-analysis of the deposited data

How the results depend on the processing

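The member count of 128 was 128 with no filter on low values, 97 at a minimum mean of 5 FPKM, 165 with median-ratio size factors and 93 when the lower rep1 run was set against the highest other run. It was 201 with a pseudocount of 0.1, 54 with a pseudocount of 5, 612 at 2-fold and 23 at 8-fold. Among alternatives chosen after seeing the data, it was 215 without both wild type runs, 147 without both Osmads6 runs, 186 without both Osmads32 runs and 128 with the wild type and Osmads6 labels exchanged. Leaving out single runs gave 125 to 142. The median log2 ratio (2.36) was 2.49 and 2.299 with pseudocounts of 0.1 and 5, 2.37 at a minimum of 5 FPKM and with size factors, 2.298 for the lower run, 1.46 at 2-fold, 3.40 at 8-fold and 2.32 to 2.37 without single runs. The share of members lowest in Osmads6 (73.4%) was 87.0% with a pseudocount of 5 and at 8-fold, 67.7% with a pseudocount of 0.1, 67.6% at 2-fold, and 69.5% to 78.0% without single runs. Members with a near neighbour (26) numbered 54 and 10 with pseudocounts of 0.1 and 5, 15 within 5 rows and 20 to 31 without single runs. List genes among the members (1) numbered 3 with a pseudocount of 0.1. Genes 4-fold higher in rep1 with pseudocounts of 0.1 and 5 numbered 1031 and 334 over Osmads6, 511 and 108 over Osmads32, and 374 and 102 over wild type. Without single runs they numbered 670 to 710, 308 to 339 and 212 to 294 in the same order, and lignin genes 2-fold above all others 7 to 8. Of the 14 named members, 6 (CHS1, CHT7, CHT9, CYP714B2, DOS and GSTZ5) stayed at least 4-fold in all 14 settings, and none changed direction; VIT2 had the lowest ratio, 1.41 with a pseudocount of 5. The cause of these shifts was not tested. Low genes weigh most in the pseudocount settings by construction. No paired analysis was possible because each genotype has 1 sample and no test was made. Whole-read floors limit what values of 0 can show.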
